A study of Drosophila melanogaster with 2 samples.

Results

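MicroRNA genes were examined for binding of the bZIP transcription factor CrebA, and 21 of the 260 on nuclear chromosomes had an optimal CrebA-eGFP summit within 2000 bp of the hairpin. The members are the annotated nuclear genes of biotype pre_miRNA, which are 260 of 17796 nuclear genes in all; 2 more of the 262 annotated hairpins lie on a ribosomal DNA scaffold and were left out. Chromatin for ChIP-seq came from entire larvae of the strain CrebA-MiMIC-GFP, of both sexes, at the wandering stage of the third instar. In that line an exon for eGFP inside an intron makes the native gene encode a CrebA-GFP fusion, which was pulled down with an antibody against GFP from sonicated chromatin. There was 1 group of 2 biological replicates, labelled 4 and 2, and no second condition or untagged larvae to compare, so every value describes the tagged line. Peaks were called by the authors on dm6, and the summit is the highest point of a peak. The optimal list, kept by agreement of the replicates in an irreproducible discovery rate procedure, held 2238 peaks, 2209 of them nuclear. A relaxed list of 29999 peaks, background included, was called for the pooled replicates and for each replicate alone. A peak's signal is the authors' own value, in units whose scaling to depth is not given in the sources used here. Whole larvae mix many tissues, so a strong signal in few cells and a weak one in many cannot be told apart.

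A microRNA is cut from a hairpin in a longer primary transcript, first by Drosha with Pasha in the nucleus and then by Dicer-1 in the cytoplasm, and is loaded into Argonaute-1, where its seed pairs with target messages. Many fly microRNA hairpins sit inside introns of protein-coding genes or in long non-coding RNAs, and hairpins in tandem can come from 1 primary transcript, so the promoter may lie far from the hairpin. In late larvae microRNAs tune growth, metabolism, cell survival and the response to the steroid ecdysone. CrebA belongs to the CREB3 family and is known as an activator of secretory pathway genes in the embryonic salivary gland.

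The mature sequences below come from RefSeq (Release 6, the dm6 build). They are a selection from loci described below and are not a list of the hairpins nearest to a summit, though some of those are among them. Capitals mark the seed, bases 2 to 8 from the 5′ end, and the genes are all on the plus strand.
mir-279-3p: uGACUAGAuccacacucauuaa
mir-996-3p: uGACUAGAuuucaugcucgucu
mir-282-5p: uAGCCUCUacuaggcuuugucugu
mir-276a-3p: uAGGAACUucauaccgugcucu
mir-275-3p: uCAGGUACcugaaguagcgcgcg
mir-305-5p: aUUGUACUucaucaggugcucug
mir-375-3p: uUUGUUCGuuuggcuuaaguua
mir-317-3p: uGAACACAgcuggugguauccagu
mir-92a-3p: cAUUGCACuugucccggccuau
mir-92b-3p: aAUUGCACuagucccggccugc
mir-4962-5p: uUUCCCUCucucuguuuacauuga
The seed GACUAGA is the same in mir-279, mir-996 and mir-286, so these 3 genes form 1 seed family. The seed AUUGCAC is carried by 6 genes: mir-92a, mir-92b, mir-310, mir-311, mir-312 and mir-313. The 3p arm of mir-275 shares its seed with mir-306, that of mir-276a with mir-276b, and that of mir-317 with mir-4943. The seeds printed for mir-282, mir-305, mir-375 and mir-4962 occur in no other annotated microRNA gene.

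Around the summits, 5 windows of 201 bp were read from the RefSeq Release 6 sequence, plus strand, dm6 coordinates. They are the strongest microRNA summit, at mir-279; the summit at the start of the mir-282 transcript; the stronger mir-317 summit, which holds the most GAGAG; and, from mir-4962, a summit with a CACGTCA and the only summit inside a hairpin. Capitals mark matches on either strand to CACGTCA, the core of the CREB3 family site, ACGTG, whose reverse complement overlaps that core, GAGAG, the sequence bound by GAGA factor, TGTTTAC, a forkhead sequence, and AGATAA, bound by the zinc finger family of serpent.
mir-279, chr3R:29214272-29214472: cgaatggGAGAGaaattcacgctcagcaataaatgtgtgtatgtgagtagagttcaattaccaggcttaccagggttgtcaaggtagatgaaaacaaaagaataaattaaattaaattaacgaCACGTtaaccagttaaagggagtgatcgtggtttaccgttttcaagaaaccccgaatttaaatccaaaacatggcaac
mir-282, chr3L:3249339-3249539: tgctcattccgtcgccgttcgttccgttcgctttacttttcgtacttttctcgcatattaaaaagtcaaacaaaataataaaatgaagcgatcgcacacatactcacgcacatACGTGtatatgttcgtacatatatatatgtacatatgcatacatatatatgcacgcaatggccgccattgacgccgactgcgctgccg
mir-317, chr3R:10089248-10089448: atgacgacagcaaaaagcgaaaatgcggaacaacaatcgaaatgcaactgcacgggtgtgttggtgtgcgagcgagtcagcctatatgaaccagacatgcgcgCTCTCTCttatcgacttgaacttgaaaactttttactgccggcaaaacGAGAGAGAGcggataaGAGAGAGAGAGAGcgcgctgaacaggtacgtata
mir-4962, chrX:3776335-3776535: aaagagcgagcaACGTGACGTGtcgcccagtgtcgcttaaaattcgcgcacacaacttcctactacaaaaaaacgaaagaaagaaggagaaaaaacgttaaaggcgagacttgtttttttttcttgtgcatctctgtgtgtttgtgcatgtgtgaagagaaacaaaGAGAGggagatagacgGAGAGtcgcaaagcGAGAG
mir-4962 hairpin, chrX:3777343-3777543: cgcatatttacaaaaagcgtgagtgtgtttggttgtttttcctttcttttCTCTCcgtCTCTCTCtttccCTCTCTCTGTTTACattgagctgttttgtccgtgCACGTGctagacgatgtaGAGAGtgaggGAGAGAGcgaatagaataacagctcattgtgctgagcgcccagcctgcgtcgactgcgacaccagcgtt
The mir-279 window held 1 ACGTG and 1 GAGAG and no CACGTCA, and 37.3% of its bases were G or C. The mir-317 window held 10 matches to GAGAG, counting overlapping ones. The mir-4962 hairpin itself, 124 bp long, held 8 GAGAG matches, 2 ACGTG and 1 TGTTTAC, so there the repeat lies in the sequence of the precursor RNA.

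As a class, microRNA genes were less often near an optimal summit than tRNA genes, and their interval took in the share of genes as a whole. The 21 of 260 genes make 8.08% (95% Wilson interval 5.34 to 12, counting error only). Among the 17536 other nuclear genes the percentage was 11.2, among protein-coding genes 11.1 and among non-coding RNA genes other than microRNA, tRNA, snoRNA and snRNA genes 11.1. Long genes reach more summits than a hairpin, whose median length is 92 bp. Measured from the 5′ end alone, the share was 8.08% for microRNA genes and 7.58% for all other nuclear genes. Of all bases on the chromosome arms, 5.29% lay within 2000 bp of an optimal summit. Other short RNA genes lay on either side: 37.9% of 290 tRNA genes had such a summit, and 4.32% of 301 snoRNA and snRNA genes, the guides of RNA modification and splicing. The microRNA interval held neither of these shares, but it overlapped the interval of the snoRNA and snRNA genes (2.54 to 7.25); no test of these shares was made.

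**Figure D1:**
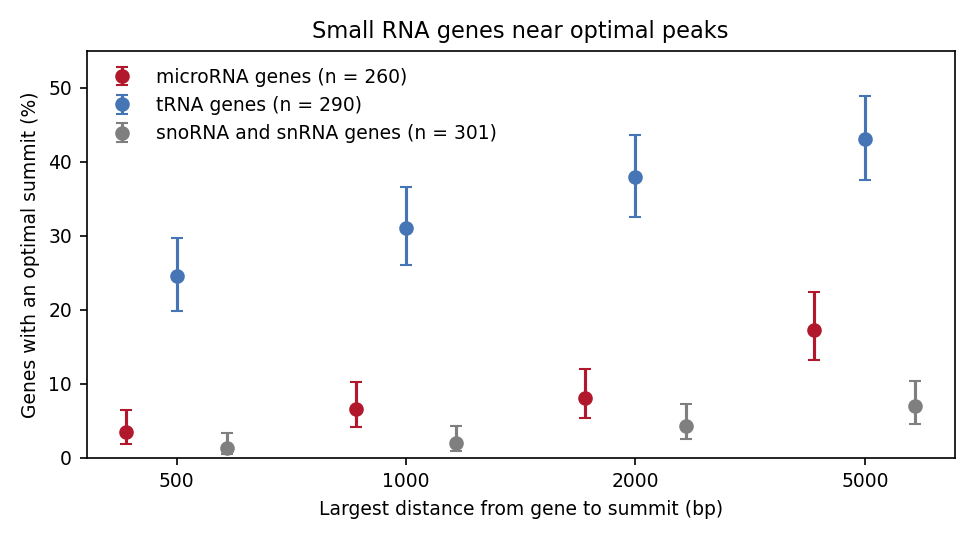
Percentage of microRNA, tRNA and snoRNA or snRNA genes with an optimal summit within 500, 1000, 2000 or 5000 bp of the gene; points are shares and bars 95% Wilson intervals. At every distance the microRNA share (3.46, 6.54, 8.08 and 17.3%) lies below that of tRNA genes (24.5, 31.0, 37.9 and 43.1%) and above that of snoRNA and snRNA genes (1.33, 1.99, 4.32 and 6.98%).

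Neighbouring hairpins share a summit, so loci were counted too. Genes of 1 strand joined at gaps of up to 10000 bp gave 203 loci, of which 181 held a single hairpin and 22 held several, 79 genes together and at most 12 in a locus. An optimal summit lay within 2000 bp of 20 loci (9.85%, 6.47 to 14.7). In the relaxed pooled list, which holds background, 120 microRNA genes had a summit within 2000 bp (46.2%, 40.2 to 52.2), against 46.1% of all other nuclear genes and 45.8% of all bases. For snoRNA and snRNA genes that percentage was 26.9.

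The summits lay upstream of the hairpin more often than downstream. In the 2000 bp upstream, 17 microRNA genes had an optimal summit (6.54%, 4.12 to 10.2), against 5.06% of all other nuclear genes. In the 2000 bp downstream there were 7 (2.69%, 1.31 to 5.45), against 3.03% of all other nuclear genes. Of the 21 genes, 14 had summits upstream only, 4 downstream only (mir-375, mir-314, mir-956 and mir-92a) and 3 on both sides (mir-282, mir-4962 and mir-9377). For snoRNA and snRNA genes the counts were 8 upstream and 8 downstream, and for tRNA genes 64 and 53. The furthest nearest summit among the 21 was 1866 bp away, at mir-308; just outside came mir-4943, whose nearest optimal summit was 2083 bp away (signal 149.8).

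**Figure D2:**
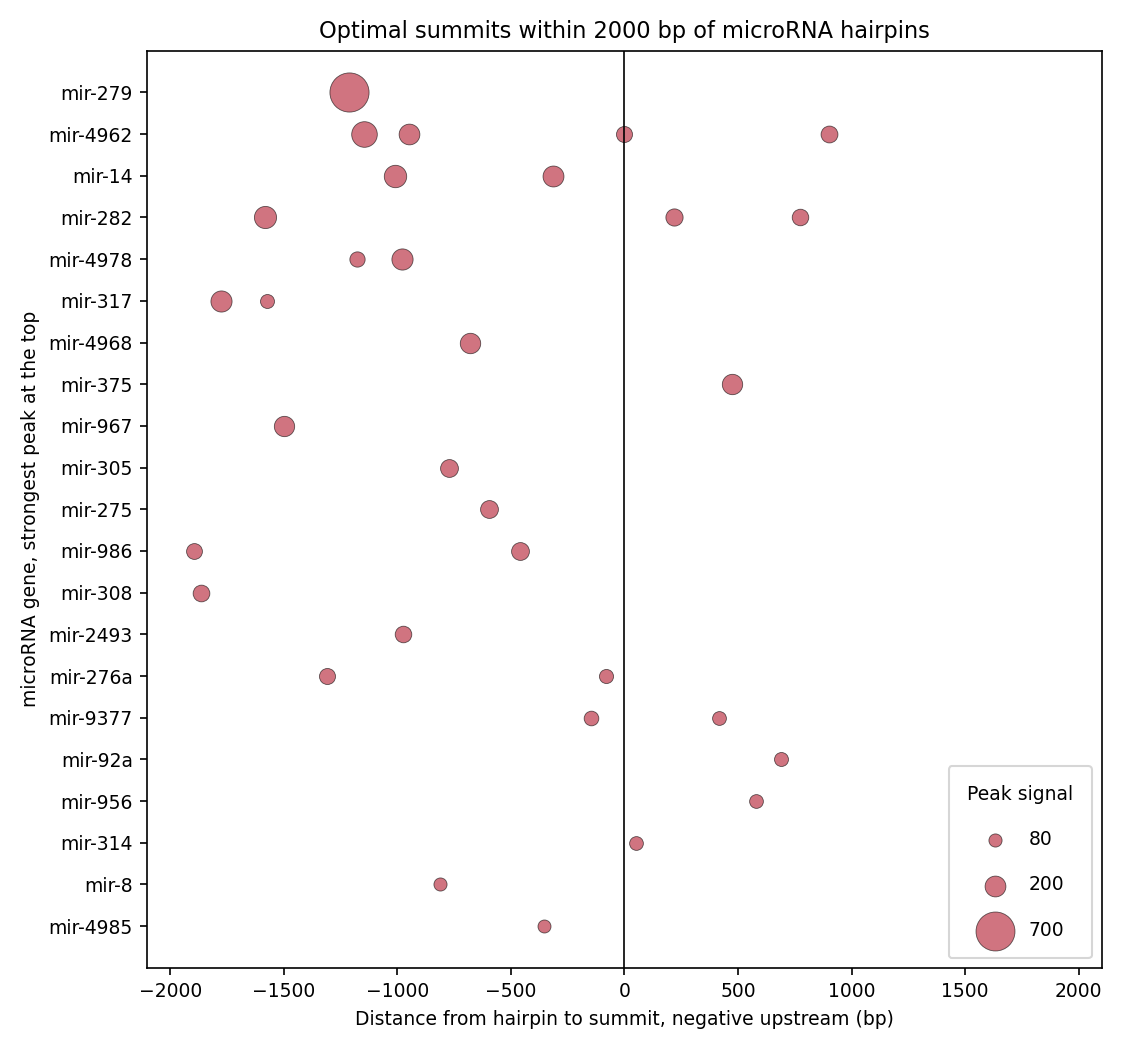
The 30 optimal summits within 2000 bp of the 21 microRNA genes, by distance from the hairpin in bp (negative upstream on the gene's strand, 0 inside the hairpin); each row is a gene, and the area of a circle gives the pooled peak signal. Circles lie mostly on the upstream side, and the mir-279 summit, 1213 bp upstream, has by far the largest circle.

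The strongest microRNA summit belonged to mir-279 (FBgn0262448, chr3R:29215585-29215684, plus strand), which shapes the fate of carbon dioxide-sensing neurons and restrains JAK/STAT signalling. The peak had a pooled signal of 706.8, with 279.5 in replicate 4 and 431.4 in replicate 2. It ranked 28 in the optimal list and 5 among its 2209 nuclear peaks, and ranked 25 and 24 in the lists of replicates 4 and 2, so both replicates placed it near the top. Its summit lay 190 bp upstream of the single start of lncRNA:CR31044, the annotated RNA that carries the mir-279 hairpin 1023 bp after the start and the mir-996 hairpin 2622 bp after it. mir-996, of the same seed family, therefore shares that annotated start, but its hairpin lies 2812 bp from the summit and so fell outside the 2000 bp limit. No other optimal summit lay within 2000 bp of either hairpin.

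mir-282 (FBgn0262368, chr3L:3251022-3251118, plus strand), known for effects on viability and egg production, had 3 summits within 2000 bp. The strongest, with signal 226.9 (112.5 in replicate 4 and 98.3 in replicate 2), lay between the upstream starts of its host lncRNA:CR43626, 99 bp after one and 151 bp before the next. The other two lay downstream of the hairpin, inside the same RNA, at 216 bp (signal 136.9; 40.7 in replicate 4 and 90.4 in replicate 2) and 772 bp (126.3; 77.7 and 66.5 in replicates 4 and 2). A further summit of signal 144.0 lay 498 bp upstream of the first start, beyond 2000 bp from the hairpin. A stronger one, of signal 280.8, lay farther upstream, at -1711 bp from the start that lies 151 bp after the first summit named. The locus thus carried optimal summits before and after the hairpin, and the order of its peaks differed between the replicates.

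mir-276a (FBgn0266076, chr3L:10365228-10365325, plus strand), which acts on a dopamine receptor in olfactory memory, had its stronger summit 100 bp upstream of a start of lncRNA:CR46006 and 1309 bp upstream of the hairpin. The pooled signal was 119.0, with 23.4 (rank 4755) in replicate 4 and 97.0 (rank 544) in replicate 2. The weaker summit, 81 bp upstream of the hairpin, had signal 92.2, with 48.3 (rank 1270) in replicate 4 and 46.0 (rank 2729) in replicate 2. The stronger of the pair thus ranked higher in replicate 2, and the weaker ranked higher in replicate 4. An additional start of this RNA, 32767 bp upstream of the hairpin, had a summit of signal 97.9 (21.9 in replicate 4 and 83.2 in replicate 2).

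mir-275 (FBgn0262453, chr2L:7425795-7425892) and mir-305 (FBgn0262458, chr2L:7425972-7426044), both on the plus strand, share 1 summit of signal 147.0 (74.6 in replicate 4 and 69.6 in replicate 2), 597 and 774 bp upstream of the hairpins. mir-305 is known for balancing stem cell renewal in the adult gut, and mir-275 for blood digestion in mosquitoes. The summit lay in an exon of lncRNA:CR43857, 1378 bp after its start, and another of signal 130.6 (57.8 in replicate 4 and 92.1 in replicate 2) lay 301 bp upstream of that start. The annotated RNA spans mir-275 and ends before the mir-305 hairpin, so by the annotation mir-305 has no host. mir-375 (FBgn0262177, chr2L:857542-857632, plus strand), whose mammalian namesake acts in pancreatic islets, had a summit of signal 191.2 (57.7 and 122.9 in replicates 4 and 2) 472 bp downstream of the hairpin, in an exon of its host lncRNA:CR45345. That summit lay 701 bp after the nearest start of this RNA.

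On arm 2R, mir-14 (FBgn0262447, chr2R:9553762-9553824), a suppressor of cell death that also acts in fat metabolism and in the ecdysone response, had 2 summits. The first, of signal 231.2 (98.0 in replicate 4 and 128.8 in replicate 2), lay 94 bp upstream of the only start of lncRNA:CR43651. The next, of signal 202.0 (98.2 and 110.9 in replicates 4 and 2), lay inside that RNA, 313 bp upstream of the hairpin. Both were in the strongest 2238 peaks of each replicate. mir-8 (FBgn0262432, chr2R:16831432-16831518), the fly member of the miR-200 family and a regulator of fat body growth, had a weaker summit of signal 79.5 (31.8 and 53.2 in replicates 4 and 2), 67 bp upstream of the nearer start of lncRNA:CR43650. At the farther start of the same RNA, 2337 bp upstream of the hairpin, lay a stronger summit of signal 122.7 (70.5 and 58.3 in replicates 4 and 2). mir-8 was the only one of the 21 genes that had no summit within 2000 bp in the strongest 2238 peaks of replicate 4.

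**Figure D3:**
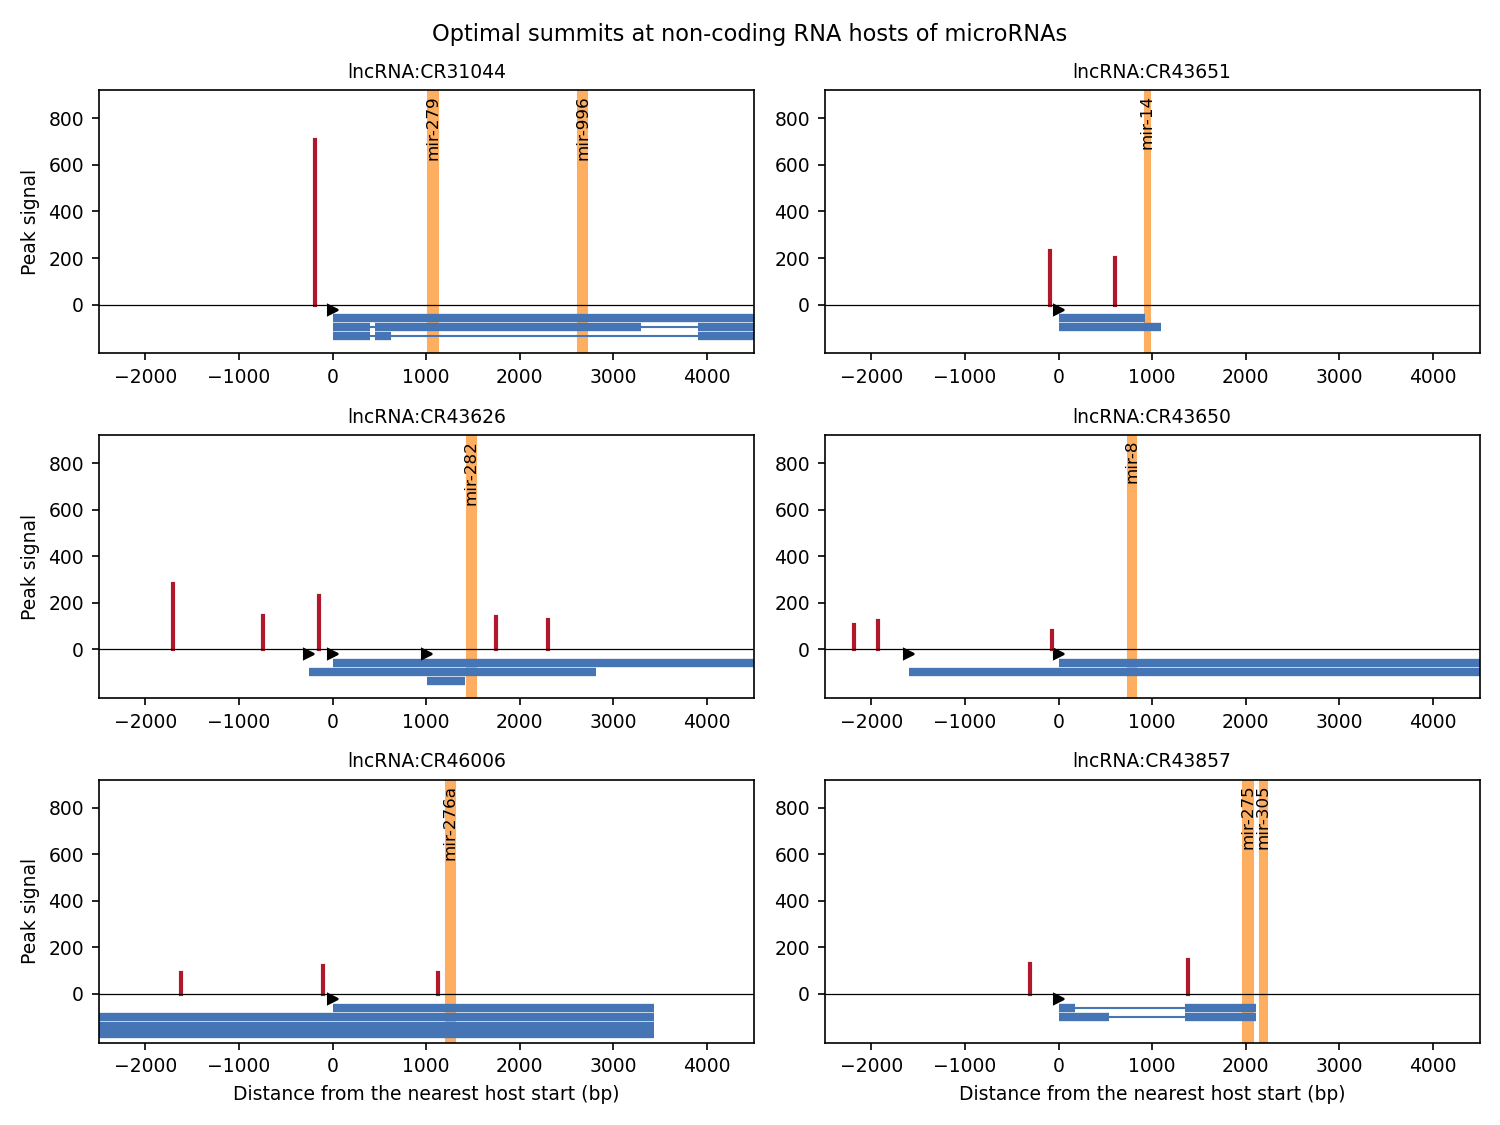
Optimal summits (red lines, height is the pooled signal), annotated starts (black arrowheads), up to 4 annotated transcripts of the host (blue, exons thick) and hairpins (orange) at 6 non-coding RNA hosts, by distance in bp from the start nearest upstream of the hairpin among the transcripts that span it. At each of the 6 hosts shown a summit lies within 500 bp of a start, from 79.5 at mir-8 to 706.8 at mir-279. Of all 37 non-coding hosts, 10 had such a summit. The host of mir-375, whose summit lay 701 bp after the nearest start, is not shown.

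The remaining genes lay mostly in or beside protein-coding genes. mir-4962 (FBgn0263532, chrX:3777382-3777505, plus strand) is in an intron of Tlk, the Tousled-like kinase of chromatin assembly, and had 4 summits, more than any other microRNA gene. Their signals were 302.7, 198.2, 119.1 and 131.3 pooled, then 102.3, 52.1, 52.9 and 45.8 in replicate 4 and 205.3, 107.2, 80.3 and 97.2 in replicate 2, in order along the chromosome. All 4 were higher in replicate 2, the first 2 lay 177 and 376 bp after a Tlk start, and the weakest lay inside the hairpin. mir-967, in an intron of bun, a TSC22 family growth gene, had a summit of signal 190.1 (104.7 and 90.2 in replicates 4 and 2) 342 bp upstream of a bun start. mir-4968, in an intron of Mob2, had one of signal 192.0 (91.1 and 102.7 in replicates 4 and 2) 261 bp upstream of a Mob2 start.

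Hosts with a role in metabolism and protein synthesis were among these. mir-986, in an intron of the cytochrome P450 gene Cyp4e2, had summits of signal 146.9 (82.7 and 68.8 in replicates 4 and 2), 40 bp upstream of a Cyp4e2 start, and 116.0 (38.8 and 69.9), 280 bp upstream of Cyp4ad1. mir-4985, in an intron of Fatp3, a fatty acid transport gene, had the weakest of the 30, of signal 78.4 (45.7 and 41.7), 219 bp upstream of the only Fatp3 start. mir-308, in an intron of the ribosomal protein gene RpS23, had one of signal 128.9 (48.4 and 91.1), 1103 bp upstream of RpS23 and 1866 bp from the hairpin. In these cases the nearest annotated start is that of a protein-coding gene, and the peak lists do not say which transcript a summit belongs to.

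mir-317 (FBgn0262378, chr3R:10091126-10091217, plus strand) stands first in a locus with mir-277 and mir-34 and has no annotated host. Its summits, 1778 and 1575 bp upstream, had signals of 206.1 (100.4 in replicate 4 and 96.8 in replicate 2) and 90.4 (100.4 and 24.4) and lay in an exon of lncRNA:CR45054. These 2 peaks overlap, and both matched 1 replicate 4 summit. mir-92a (FBgn0262411, chr3R:25646506-25646600, plus strand), which with mir-92b sits in jigr1 and is known for keeping neuroblasts renewing, had a summit of signal 90.4 (65.6 in replicate 4 and 24.6 in replicate 2) 687 bp downstream of the hairpin, 41 bp after a jigr1 start. mir-92b lay 4111 bp from it, outside the limit. The remaining summits were those of mir-4978, opposite in strand to the Notch coactivator gene mam (207.4 and 107.9), mir-2493 in CG42788 (126.8), mir-9377 in Tis11, which encodes a factor of mRNA decay (99.0 and 88.4), and the 87.6 summit shared by mir-314 and mir-956 on opposite strands.

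Because a promoter can be far from the hairpin, starts of host transcripts were examined next. A host is a gene on the same strand with a transcript that spans the whole hairpin. Of the 260 hairpins, 51 had a non-coding RNA host, 131 a protein-coding host, 27 lay only across a gene of the opposite strand and 51 across none. An optimal summit within 500 bp of the start of such a transcript was found for 36 microRNA genes: 11 of the 51 with a non-coding host (21.6%, 12.5 to 34.6) and 25 of the 131 with a protein-coding host (19.1%, 13.3 to 26.7). Counted by host and by any annotated start of the gene, as for genes that host none, 10 of 37 non-coding hosts had one (27%, 15.4 to 43), against 3.46% of non-coding RNA genes that host no microRNA. Of 124 protein-coding hosts 25 had one (20.2%, 14 to 28.1), against 4.93% of protein-coding genes that host none. At the start of a transcript that spans the hairpin itself, the number was 10 non-coding and 21 protein-coding hosts.

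Hosts had more annotated starts than other genes, which gives a summit more chances to fall near one. The non-coding hosts had 1.65 starts on average and the non-hosts 1.06; for protein-coding genes these means were 2.23 and 1.4. With only 1 annotated start, 4 of 23 non-coding hosts had a summit at it (17.4%), against 3.17% of single-start non-hosts. For protein-coding genes it was 3 of 54 hosts (5.56%), against 2.81% of single-start non-hosts. Both differences in share were smaller among single-start genes, but they rested on only 3 protein-coding and 4 non-coding hosts with a summit. No test was made, and the part of the number of starts in these shares was not tested further.

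Several well-known microRNAs had an optimal summit at the host start, with the hairpin far away. The start region of lncRNA:CR43334, host of bantam (mir-ban), which drives growth and represses the death gene hid, had a summit of signal 168.3 at 81 and 116 bp upstream of a pair of starts, with the hairpin 13773 and 13738 bp downstream of them. It had signal 70.7 in replicate 2 and no match within 200 bp in replicate 4. lncRNA:CR43314, host of mir-263a (mir-bft), which protects sense organ cells from death, had a summit of signal 99.7 (41.0 and 58.5 in replicates 4 and 2) 242 bp after its start, with the hairpin 17591 bp downstream. The host of mir-184, lncRNA:CR44206, had one of signal 82.5 (29.7 and 62.7), and lncRNA:Hsromega, the heat shock RNA that spans mir-4951, had 2, of 144.8 (70.5 and 70.1) and 140.8 (83.4 and 70.7).

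Among protein-coding hosts, the cell cycle gene E2f1 had a summit of signal 116.3 (49.5 and 65.2 in replicates 4 and 2), with the hairpins of mir-998 and mir-11 more than 10000 bp downstream. The checkpoint kinase gene grp had one of signal 87.9 (46.8 and 41.9), with mir-9c, mir-306, mir-79 and mir-9b in its introns. CG42524, which spans mir-278, had one of signal 91.6 (40.7 and 56.1). None of these summits was near the hairpin itself, so those 7 genes are not among the 21. Of the 21, 7 had a non-coding host, 9 a protein-coding host, 1 lay only across an opposite-strand gene and 4 across none.

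All 30 summits near microRNA genes had a summit within 200 bp in both replicate lists, against 2110 of all 2209 nuclear optimal summits (95.5%). Their signals ranged from 78.4 to 706.8 with a median of 130.1, against a median of 110.1 for all nuclear optimal peaks. Spearman's rho between the replicate signals was 0.41 over the 30 summits and 0.43 over all nuclear ones matched; the summits share libraries and some share a replicate peak, so these are descriptions. In the strongest 2238 peaks of each replicate, replicate 4 held 28 of the 30, replicate 2 held 23, both held 21, and every summit was in at least 1. Of the 2110 nuclear optimal summits matched in both replicates, replicate 4 held 1612, replicate 2 held 1562, both held 1191 and neither held 127. Counted by gene, the strongest 2238 peaks of replicate 4 lay within 2000 bp of 23 microRNA genes (8.85%) and those of replicate 2 of 28 (10.8%). Among protein-coding genes these shares were 11.2% and 12.4%. The lists of microRNA genes shared 16, which is 69.6% of the replicate 4 genes and 57.1% of the replicate 2 genes. The overlap was not counted over all genes, so it is not set apart as a trait of microRNA genes. All 16 were also among the 21; the 5 others were mir-8, missing from replicate 4, and mir-314, mir-956, mir-92a and mir-4985, missing from replicate 2.

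**Figure D4:**
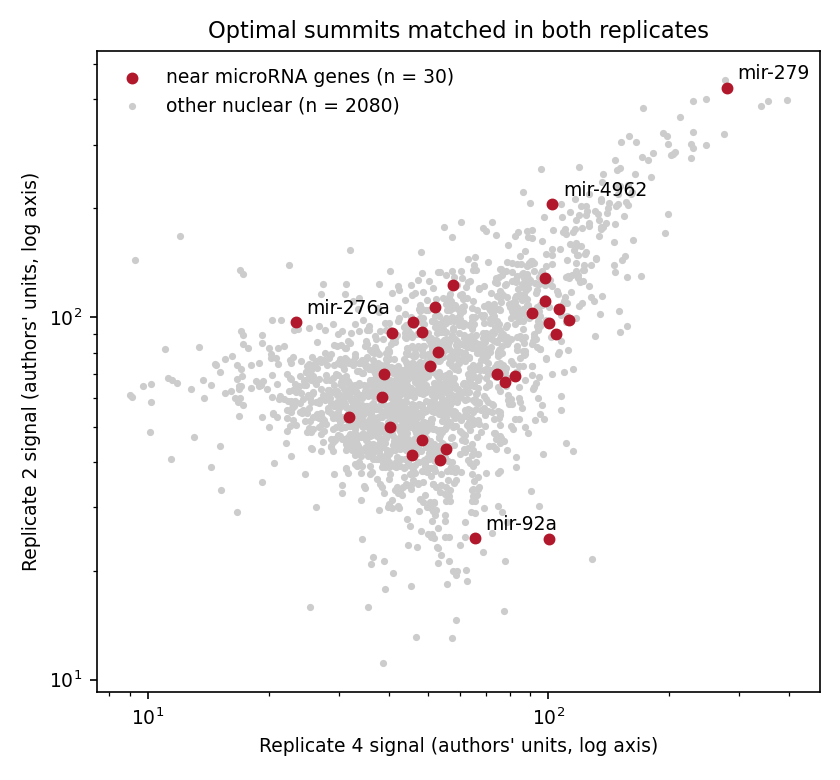
Signal in replicate 2 against signal in replicate 4, log axes, for the 2110 nuclear optimal summits matched in both replicates; red points are the 30 near microRNA genes and grey points the rest. The mir-279 summit lies at the upper right with 279.5 in replicate 4 and 431.4 in replicate 2, mir-276a (23.4 and 97.0) lies to the left, and mir-92a (65.6 and 24.6) near the bottom.

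Near an annotated start of another gene lay 14 of the 30 summits, 5 at non-coding RNA genes and 9 at protein-coding genes, all within 500 bp. Another 14 were farther away but inside a gene and 2 were farther away and intergenic. Of all 2209 nuclear optimal summits, 895 lay within 500 bp of a start. Sequence in the 201 bp windows was compared by count. CACGTCA occurred in 3 of the 30 windows (10%), one each at mir-4962, mir-308 and mir-986, against 1.4% of all nuclear optimal windows of that length. The mir-308 and mir-986 matches were at summits 1866 and 1896 bp from the hairpin. For mir-986 that was the weaker summit, 280 bp upstream of Cyp4ad1. ACGTG, whose reverse complement CACGT lies within CACGTCA, occurred in 12 (40%), against 19.5% of all, and GAGAG in 15 (50%), against 39.9% of all. TGTTTAC occurred in 1 (3.33%), against 6.2% of all, and AGATAA in 2 (6.67%), against 15.2% of all. Both strands were searched, the median GC content of the windows was 43% near microRNAs and 39.8% in all, and a match of letters does not show a bound site.

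Below the optimal cutoff, 99 microRNA genes had only a relaxed pooled summit within 2000 bp, and 140 had none. Their strongest signals ran from 15.7 to 75.6 with a median of 27.7, against a median of 22.1 for all nuclear pooled peaks weaker than the weakest nuclear optimal one (76.9). The first median takes the strongest summit of each gene and the other takes every single peak, so they are unlike measures. The strongest summit had a match in both replicates for 45 genes, in 1 replicate for 38 and in none for 16. Just under the cutoff came mir-4975 (75.6), mir-4955 (69.3), mir-285 (69.2), mir-2497 (66.7) and mir-9373 (63.8). They were followed by mir-2a-1, mir-2a-2 and mir-2b-2, which lie in the EGF ligand gene spi and share a summit of signal 63.5 that had 71.5 in replicate 2 and no match in replicate 4, then mir-995 (62.6) and mir-958 (59.8). mir-4975 also had optimal summits at a start of its hosts chk and CG45092, of 107.0 and 79.1, with the hairpin 8619 bp downstream.

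**Figure D5:**
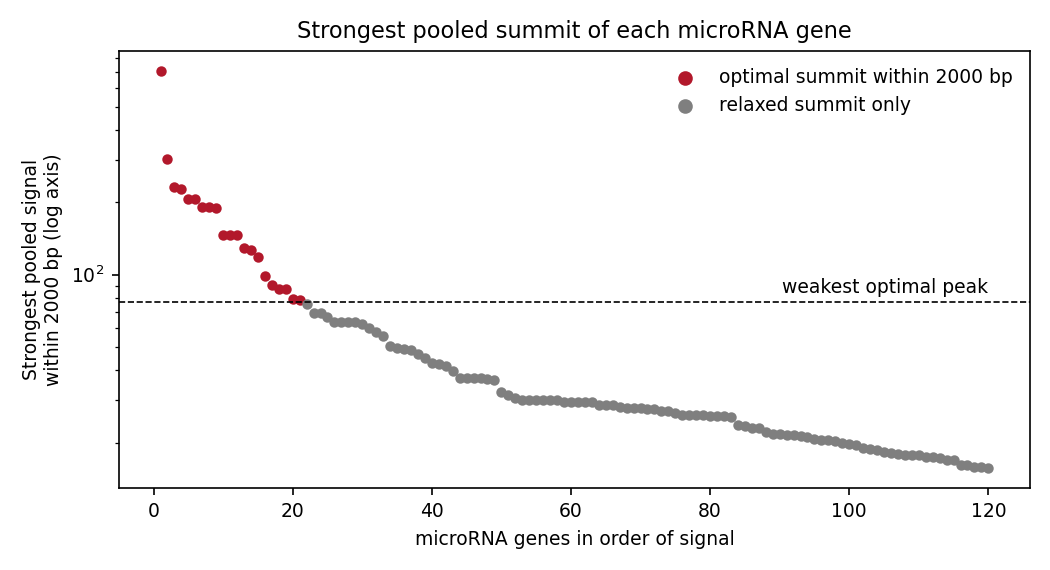
Strongest pooled signal within 2000 bp, log axis, for each of the 120 microRNA genes with a relaxed pooled summit, in falling order; red points have an optimal summit and grey points only a relaxed one. The dashed line is the weakest nuclear optimal peak, 76.9; the series falls from 706.8 at mir-279 to 15.7.

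Shares with a relaxed pooled summit were counted by host and by chromosome. A relaxed pooled summit lay within 2000 bp of 36 of the 51 hairpins with a non-coding RNA host (70.6%, 57 to 81.3), of 50 of the 131 in a protein-coding host (38.2%, 30.3 to 46.7), of 25 of the 51 with no gene across them (49%) and of 9 of the 27 with an opposite-strand gene only (33.3%). In non-coding hosts 47 of the 51 hairpins were in an exon, against 35 of 131 in protein-coding hosts, where most are intronic. On the X chromosome 11 of 58 microRNA genes had a relaxed summit (19%, 10.9 to 30.9), against 33.4% of other X genes, and 2 of 58 had an optimal one (3.45%, 0.951 to 11.7), against 9.26% of other X genes. The X holds 1 locus of 12 hairpins with no relaxed pooled summit; counted by locus, 11 of 39 X loci had one (28.2%, 16.5 to 43.8). On 2L 27 of 56 microRNA genes had a relaxed summit (48.2%), against 51.6% of other 2L genes, and on 2R 33 of 55 (60%), against 44% of other 2R genes. On 3L it was 18 of 31 (58.1%), against 50.4% of other 3L genes, and on 3R 29 of 58 (50%), against 48.2% of other 3R genes. Each interval of 2L, 3L, 3R and the X loci took in the share of other genes of that arm. The 2R interval by gene began at 46.8%, above that share. Counted by locus, 23 of 41 2R loci had a relaxed summit (56.1%, 41 to 70.1), and that interval took in the 44%. No test was made.

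Groups of microRNAs with a known role were counted next in the optimal and the relaxed pooled list, which held summits within 2000 bp of 8.08% and 46.2% of all microRNA genes. Of 6 temporal and ecdysone-linked genes, mir-14 and mir-8 had an optimal summit, while let-7, mir-100, mir-125 and mir-34 had no relaxed pooled one within 2000 bp; mir-100 had summits of 26.5 and 25.2 in the lists of replicates 4 and 2, and mir-34 one of 18.4 in replicate 2. let-7 and mir-125 are the timers of the larval to adult change. Of 16 genes of growth and cell death, mir-308 had an optimal summit and 11 others had a relaxed one. These included mir-11 (57.5; 21.2 in replicate 4 and 36.0 in replicate 2), mir-278 (42.4; 20.9 and 25.7), mir-13a and mir-13b-1, which share a summit of 30.2, mir-263b (21.3), mir-263a (19.8), mir-2b-1, with no match in either replicate, and bantam, whose hairpin had 18.3 in the pooled list. In the replicate 2 list the strongest summit within 2000 bp of the bantam hairpin had 48.5 (rank 2499). The 3 mir-6 hairpins, which restrain apoptosis in the embryo, and mir-13b-2 had none in the pooled list, though the mir-6 hairpins shared one of 16.9 in replicate 4.

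Of 8 genes of muscle and the nervous system, mir-276a had an optimal summit. The muscle microRNA mir-1 had a relaxed one of 45.0 (27.6 and 19.9 in replicates 4 and 2), mir-133 one of 30.2, mir-276b one of 27.0 and mir-184 one of 22.1. mir-124, mir-9a and mir-7, known from neurons and sense organs, had none in the pooled list; mir-124 had weak ones in the lists of replicates 4 and 2 (11.6 and 11.8). The 4 microRNAs of the Hox complexes, at 3 sites, had a relaxed pooled summit and no optimal one: mir-10 (20.5), mir-993 (19.1) and the pair mir-iab-4 and mir-iab-8, which are read from opposite strands of 1 hairpin (25.8). These signals are near the median of 22.1 for pooled peaks below the cutoff. The mir-10 summit had no match within 200 bp in either replicate, and that of mir-993 had a match in replicate 2 only (11.1).

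Of 16 genes of the machinery of microRNAs and other small RNAs, 1 had an optimal summit within 2000 bp, while 11.1% of all protein-coding genes had one. It was the chaperone gene Hsp83, which helps to load small RNAs into Argonaute. The summit, of signal 412.0 (146.5 in replicate 4 and 271.7 in replicate 2), lay 1984 bp downstream of the gene and so only just within the limit. gw, which encodes the silencing partner of Argonaute-1, had a relaxed pooled summit of 62.0 inside the gene, with 58.9 in replicate 2 and no match in replicate 4. These 2 of 16 genes were those with a relaxed pooled summit, against 43.7% of protein-coding genes. drosha, pasha, Dcr-1, loqs, AGO1, Ranbp21, Ars2, nbr, Dcr-2, r2d2, AGO2, Hen1, nito and Hsc70-4 had none in the pooled list.

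The replicates differed on this list. Among the strongest 2238 peaks of replicate 4 only Hsp83 had a summit within 2000 bp, 1 of 16, against 11.2% of protein-coding genes. That summit, of signal 47.2, lay 1572 bp from the gene. The replicate 4 summit of 146.5 that matched the pooled Hsp83 peak lay outside the limit. Among the strongest 2238 peaks of replicate 2 there were 4 of 16, namely AGO1 (70.5), gw (58.9), r2d2 (62.3) and Hsp83 (271.7), against 12.4% of protein-coding genes. AGO1 encodes the microRNA Argonaute and r2d2 the partner of Dicer-2, and both had no summit within 2000 bp in the whole relaxed list of replicate 4.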

How the data were processed

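Anti-GFP ChIP-seq peak lists of CrebA-eGFP larvae (2 biological replicates, 1 group) were analysed as the authors deposited them. Per the deposited notes, relaxed peaks and background were called against a control, once per replicate and once on pooled alignments, and the optimal list was thresholded by the irreproducible discovery rate. No source used here names the caller, its version or the cutoff. The deposited values are peak signal and −log10 q-value, and the latter reached a common ceiling, so signal set the ranks. Depth is unknown, since no read counts were used. The dm3 lists were not used. Summits were placed on dm6, and genes came from Ensembl release 115 (BDGP6.54), leaving out 485 mature arms that it lists as genes. Mature sequences were read from RefSeq, where all 260 genes matched. Distances were 2000 bp from genes, 500 bp from starts and 200 bp between replicates. Shares carry 95% Wilson intervals; no test was run, since there is no second group. Named are every gene with an optimal summit, the 10 strongest others, members of the functional lists and pathway genes with an optimal summit. Host-start examples and the replicate 2 machinery genes, beyond that rule, were chosen after their values were seen. The members, lists and motifs were chosen with earlier results of these data known. Alternatives were other distances, stronger peaks, peak intervals and each replicate alone. Scripts used Python 3.11.15, numpy 2.4.6, scipy 1.17.1 and matplotlib 3.10.9 and were tested on simulated data.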

Additional observations from a re-analysis of the deposited data

How the results depend on the processing

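For 6 counts, 31 alternatives were run, and 22 stayed within 1.5 times the value reported. Of the 9 that moved, 7 were changes of distance. Within 500 bp of an optimal summit there were 9 microRNA genes and 9 loci, and within 5000 bp 45 genes and 33 loci, against 21 genes and 20 loci at 2000 bp. Within 500 bp of a relaxed pooled summit there were 57 genes, against 120. Machinery genes near a summit numbered 0 at 500 bp and 0 at 1000 bp, against 1. With the 2238 strongest peaks of a single replicate in place of the optimal list, they numbered 1 without replicate 2 and 4 without replicate 4, so the count rests on which replicate is used. The same change gave 23 to 28 microRNA genes and 22 to 24 loci. All relaxed peaks of 1 replicate gave 122 to 125 genes. The count of genes with a summit at a host start, chosen after seeing the data, was 31 to 33 with 1 replicate left out and 21 with the 1119 strongest optimal peaks, against 36. The cause of these changes was not tested beyond what each limit itself removes. No paired analysis was possible because there is 1 group and no test. The lists give no read depth, so the precision of a single peak is unknown, and shared summits make neighbouring genes dependent.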

Other observations

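Some microRNA genes without an optimal summit within 2000 bp had one somewhat farther away. The nearest lay 3869, 4469 and 4750 bp from the hairpins of mir-100, let-7 and mir-125, which form 1 locus, and had a signal of 90.8. mir-10, in the Antennapedia complex, had one of signal 109.4 at 3180 bp, and mir-9a, a brake on sense organ precursors, one of 113.0 at 3409 bp. The tandem hairpins mir-310, mir-311, mir-312, mir-313, mir-2498, mir-991 and mir-992 lay 2901 to 4463 bp from a summit of signal 98.7. With mir-92a inside the 2000 bp limit and mir-92b at 4111 bp, all 6 genes with the seed AUUGCAC had an optimal summit within 5000 bp, from 2 summits in all. Of all 260 microRNA genes, 45 (17.3%) had one within that distance. Within 2000 bp, mir-92a was the only one of the 6. In the mir-279 family, mir-279 and mir-996 share the 706.8 summit, while the nearest optimal summit to mir-286 was 29214 bp away and its strongest relaxed pooled one within 2000 bp had 29.6, with no match within 200 bp in either replicate.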
